A study of Mus musculus with 8 samples.

Results

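The genes of cholesterol synthesis, fatty acid metabolism and lipid droplet storage were compared between eosinophils of the bone marrow and eosinophils of the small intestine. The group holds 41 genes, picked by symbol, and all 41 were found among the 38392 genes of the expression table. The rule used names and roles, not levels. They cover 16 enzymes of cholesterol synthesis, 4 genes of sterol sensing, 2 sterol exporters, 9 genes of fatty acid synthesis and remodelling, 4 genes of fatty acid activation, uptake and oxidation, and 6 genes of lipid droplet storage and lipolysis.

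RNA was sequenced from 4 bone marrow and 4 small intestinal libraries of wildtype C57/BL6 female mice, aged 6 to 14 weeks in the study's methods. Bone marrow cells were sorted as CD11b+Ly6G-Ly6C-SiglecF+SSChi and intestinal cells as CD11b+MHC-II-SiglecF+SSChi. Intestinal cells had been freed by warm enzymatic digestion and enriched on beads against CD11b, whereas bone marrow cells had not, so tissue and handling cannot be told apart. The bone marrow libraries are called BM_1, BM_3, BM_4 and BM_5 after the table's headings, the intestinal ones SI_6, SI_7, SI_10 and SI_11, and they held 11508002 to 21289164 reads assigned to genes.

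Eosinophils are granulocytes that mature in the bone marrow and settle in the wall of the small intestine. Cells build cholesterol from acetyl-CoA through mevalonate and squalene, and the transcription factor SREBP2 switches the enzymes of this route on when membrane sterol is low. Fatty acids are made by a separate set of enzymes, activated to acyl-CoA, and either burned in mitochondria or joined to glycerol and sterols as the neutral lipids of lipid droplets. Eosinophils are known for lipid droplets that also serve as a site of eicosanoid synthesis.

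The labels were checked against defining genes before the lipid genes were described. Of 5 eosinophil genes, Ccr3, the eotaxin receptor, had 45.9 to 102 normalised counts in bone marrow and 13285 to 19653 in small intestine, and Il5ra had 4.78 to 17.7 and 894 to 1415. Epx and Prg2, which encode granule proteins, ran the other way, Epx with 303 to 398 in bone marrow and 12.5 to 29.5 in small intestine. In the bone marrow libraries a list of 9 neutrophil precursor genes, led by Mpo and Elane, summed to between 340062 and 428964 normalised counts, and it summed to between 487 and 570.1 in small intestine. The bone marrow libraries thus held little Ccr3 and Il5ra beside abundant precursor transcripts, and all 4 did so. In bulk RNA, fewer cells of a type and less RNA per cell cannot be told apart. In the small intestinal libraries 11 epithelial genes, led by Krt8 and Epcam, summed to 11657 in SI_6, 4902 in SI_7, 2073 in SI_11 and 1761 in SI_10, against 66.0 to 118 in bone marrow, where Apoa4 had no read. Other lists moved with tissue as well. Summed counts in bone marrow and small intestine were 566 to 720.0 and 1858 to 4247 for 9 macrophage and dendritic genes, 891 to 1100.4 and 45.0 to 102 for 8 erythroid genes, and 424 to 534 and 7363 to 9732 for 6 endothelial genes, of which Pecam1 gave most. They were 48903 to 52386 and 3258 to 8517 for 8 cell cycle genes, and 174 to 269.7 and 29122 to 33663 for 8 genes of the dissociation response, led by Fos and Fosb. For 6 adipocyte genes they were 16.9 to 36.3 and 62.8 to 91.9, with 3 called higher and 3 not called. Plin1 was at 0 in every bone marrow library and at 1.09 to 13.1 in small intestine. Fabp4, also in the endothelial list, had 0.957 to 7.83 and 33.9 to 42.6, and Plin4 had 12.3 to 23.2 and 11.1 to 16.4. Of the 6 endothelial genes 5 were called higher and 1 lower. The latter was Tie1, with 42.9 to 63.2 counts in bone marrow and 26.3 to 39.3 in small intestine. The part of these transcripts in the lipid gene results was not tested.

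The promoter stretches below are shown because they carry the known binding letters of SREBP or of its partner NF-Y. All are from genes that changed between the tissues. RefSeq promoter windows, from 250 bases before to 50 bases after the annotated start in build GRCm38.p6, were at hand for 32 of the 41 genes. The sterol regulatory element was searched as TCACNCCAC and the NF-Y box as CCAAT, each on both strands, and the motifs can share at most 1 base. The sterol regulatory element was found in 2 of the 32 genes, or 6.25%, against 1.44% of 27025 genes with a window. These are Hmgcs1, called higher, and Acsl1, a fatty acid activation gene called lower. These exact letters were therefore not shared among the sterol genes with a window, and other forms or positions of the element were not searched. Capitals mark the letters matched to the sterol regulatory element, and NF-Y boxes are not marked in these 2 stretches. In Hmgcs1 the match lies 137 bases before the start on the plus strand, in chr13:119690189-119690247. In Acsl1 it lies 76 bases before the second annotated start, reads on the opposite strand, and falls in chr8:46490865-46490923.
Hmgcs1: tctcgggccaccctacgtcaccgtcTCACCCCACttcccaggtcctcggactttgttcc
Acsl1: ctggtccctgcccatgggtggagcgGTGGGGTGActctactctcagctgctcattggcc

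The NF-Y box was found in 25 of the 32 genes, or 78.1%, against 41.1% of all genes with a window. Among the sterol genes with a window it was present in 8 of 8 that were called higher in small intestine and in 8 of 9 that were not called, so its presence did not set the changed genes apart. The stretches below are from genes called higher, read along the gene's own strand, with the box nearest to the start that lies outside annotated exons in capitals (ATTGG where it reads on the opposite strand). They are in chr13:119690288-119690328 for Hmgcs1, chr3:89454387-89454427 for Pmvk, chr9:42264302-42264342 on the minus strand for Sc5d, chr5:28071178-28071218 for Insig1 and chr15:82147116-82147156 for Srebf2. A match describes letters and not binding.
Hmgcs1: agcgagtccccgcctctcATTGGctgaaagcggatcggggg
Pmvk: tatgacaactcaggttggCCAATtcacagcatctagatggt
Sc5d: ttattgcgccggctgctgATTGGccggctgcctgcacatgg
Insig1: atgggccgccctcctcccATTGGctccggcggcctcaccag
Srebf2: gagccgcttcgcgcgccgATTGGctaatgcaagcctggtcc

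The lipid genes changed in both directions between the tissues. A difference is the small intestinal mean minus the bone marrow mean in deposited log2 units, given with limma's standard error (SE), and a gene was called when its 2-sided limma p, adjusted over all 38392 genes, was below 0.05. Of the 41 genes 24 were called, 15 higher and 9 lower in small intestine, and 17 were not. BM_5 had reads in 30886 genes, against 19713 to 24592 in the other bone marrow libraries, and SI_6 held the most epithelial transcripts. Without these 2 libraries 27 of the 41 genes were called, 15 higher and 12 lower. Calls over all genes went up as well, from 13402 to 14811. All 41 had a mean of at least 10 normalised counts in a tissue, so the closest background is the 17941 genes that reached this level, of which 62.8% were called, 36.6% higher and 26.2% lower. The lipid genes lay close to these shares, with 58.5% called, 36.6% higher and 22.0% lower. Over the whole table, including genes with few reads, 34.9% were called, 22.0% higher and 12.9% lower. The libraries of the tissues did not overlap for 25 of the 41 genes, or 61.0%, against 65.3% of the genes at this level. The median difference was 0.25 for the lipid genes, 0.31 for genes at this level and 0.37 for all genes, so a difference near 0.37 is what a typical gene of the table showed. The group as a whole did not stand apart, and its members differed strongly from each other, from 4.08 to -2.91. The plot of levels by library shows that most of the large changes were far outside the spread of the 4 libraries of a tissue.

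**Figure D1:**
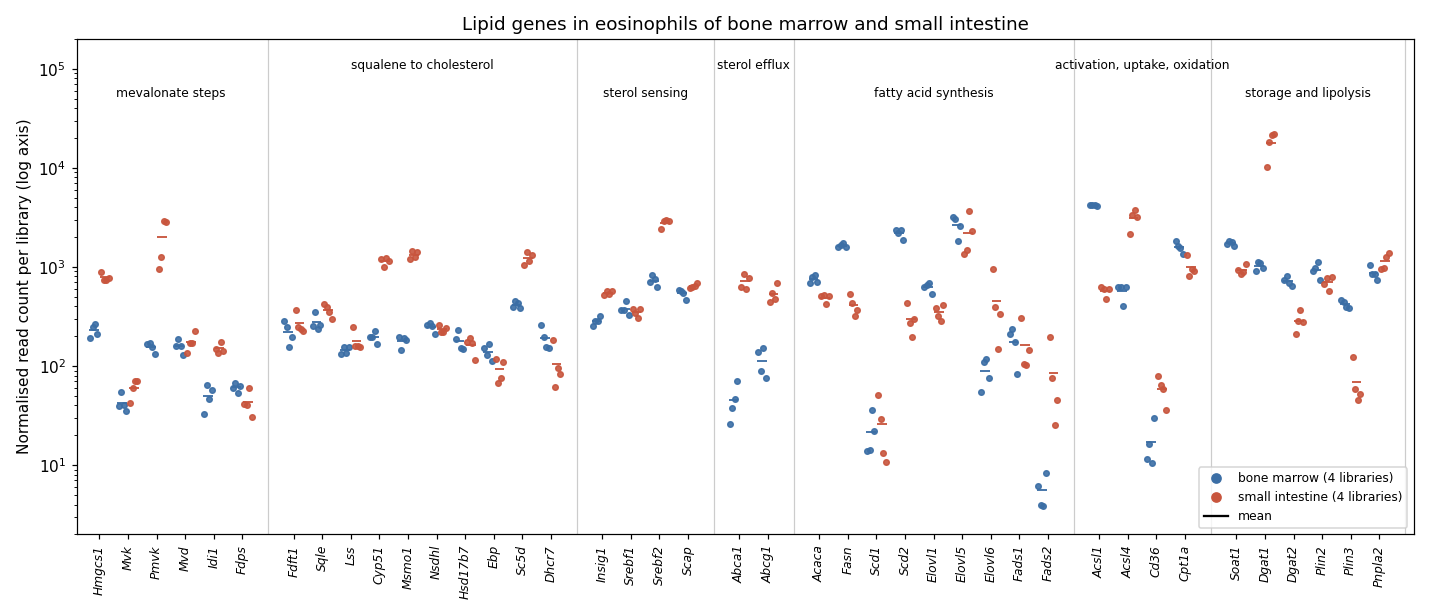
Normalised read count (log axis) of each of the 41 lipid genes, ordered by role, in the 4 bone marrow libraries (blue) and the 4 small intestine libraries (red), with short bars at the means. Dgat1 has the widest separation among the storage genes, with 909 to 1110.0 counts in bone marrow and 10195 to 22118 in small intestine, and Fads2 and Elovl6 show the widest spread within small intestine.

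Cholesterol synthesis changed at single steps. Of the 16 enzymes 6 were called higher in small intestine (37.5%, against 36.6% of genes at this level), so the share that rose was near the background. None was called lower (0%, against 26.2%) and 10 were not called, so fewer were called in all (37.5%, against 62.8%). Ebp and Dhcr7 were called lower under some alternatives, given below. In the mevalonate steps, which run from acetyl-CoA to the isoprenoid units, 3 of 6 enzymes rose. Pmvk (chr3:89454541-89469013), the kinase that adds the second phosphate to mevalonate, showed the largest rise of the 16. Its normalised counts were 167, 172, 154 and 133 in BM_1, BM_3, BM_4 and BM_5, and 942, 1256, 2918 and 2854 in SI_6, SI_7, SI_10 and SI_11. The groups did not overlap, and SI_6 and SI_7 lay well below SI_10 and SI_11. The mean was 12.7-fold higher in small intestine, with a difference of 3.48 ± 0.39 (SE, n = 4 per tissue, limma adjusted p = 0.000205). Per length of exon, Pmvk was the most abundant cholesterol synthesis enzyme in small intestine, with 1163 normalised reads per kb against 91.3 in bone marrow.

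Hmgcs1, the synthase that makes HMG-CoA, had 192, 249, 268 and 211 normalised counts in the bone marrow libraries and 884, 742, 737 and 772 in the small intestinal libraries. All 4 small intestinal values lay above the highest bone marrow value, and the difference was 1.76 ± 0.19 (adjusted p = 0.000166). Idi1, the isomerase of the isoprenoid unit, had 32.9, 64.6, 45.9 and 57.6 counts in bone marrow and 148, 136, 176 and 142 in small intestine. It differed by 1.55 ± 0.24 without overlap of the groups (adjusted p = 0.00119). Both calls were lost when each library was centred on its median over all genes, where the differences were 0.86 and 0.65. The remaining 3 enzymes overlapped between the tissues and were not called. Mvk, the kinase before Pmvk, ranged from 35.3 to 54.8 counts in bone marrow and from 42.6 to 70.0 in small intestine, with a difference of 0.47 ± 0.23. It was called higher without SI_6, at 0.62 (adjusted p = 0.0389). Mvd, the decarboxylase that follows Pmvk, differed by 0.12 ± 0.22. Fdps, which joins the units to farnesyl diphosphate, differed by -0.49 ± 0.23 and was called lower without SI_10, at -0.65 (adjusted p = 0.013). It was also called lower after quantile normalisation (-0.99, adjusted p = 0.0116) and with libraries centred on the median of all genes (-1.39, adjusted p = 0.0112). Of the exon bases of Fdps 26.7% are shared with the gene Gm43738 on the same strand, so its reads could have been split.

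Between squalene and cholesterol 3 of 10 enzymes rose (30%, against 36.6% of genes at this level). These 3 act on the methyl groups and double bonds of the sterol. Msmo1, the oxidase that removes the methyl groups at carbon 4, had 198, 145, 190.4 and 182 normalised counts in bone marrow and 1192, 1435, 1245 and 1425 in small intestine. Cyp51, which removes the methyl group of lanosterol, had 198, 196, 225 and 166 counts in bone marrow and 1197, 1005, 1219 and 1157 in small intestine. In both genes the small intestinal libraries were close together and several-fold above every bone marrow library. The differences were 2.87 ± 0.19 for Msmo1 (adjusted p = 1.17e-05) and 2.52 ± 0.18 for Cyp51 (adjusted p = 1.89e-05). Sc5d, the desaturase of a late step, had 397, 456, 432 and 384 counts in bone marrow and 1057, 1415, 1155 and 1319 in small intestine. It differed by 1.55 ± 0.18 (adjusted p = 0.000278), again without overlap, and its call was lost with libraries centred on the median of all genes (0.65).

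The other 7 enzymes of this stretch overlapped between the tissues. Fdft1, which makes squalene, differed by 0.29 ± 0.26, and 18.3% of its exon bases lie opposite exons of Ctsb. Sqle, the epoxidase that follows, differed by 0.41 ± 0.21. Lss, which closes the ring to lanosterol, had 154 to 158 counts in 3 small intestinal libraries and 247 in SI_6, and differed by 0.27 ± 0.22. Nsdhl and Hsd17b7, which act with Msmo1 on carbon 4, differed by -0.08 ± 0.18 and -0.15 ± 0.24. Ebp, the sterol isomerase, and Dhcr7, the last enzyme of one branch, had the lowest differences of the route. Ebp had 113 to 166 counts in bone marrow and 68.0 to 117 in small intestine, and Dhcr7 151 to 258 and 61.0 to 184. Their differences were -0.60 ± 0.25 (adjusted p = 0.0939) and -0.91 ± 0.35 (adjusted p = 0.0789), and both were called lower without SI_6, at -0.72 (adjusted p = 0.0482) and -1.20 (adjusted p = 0.0109). The enzymes that rose thus stood beside partners of the same route that did not pass the test, as the plot of differences by role shows.

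**Figure D2:**
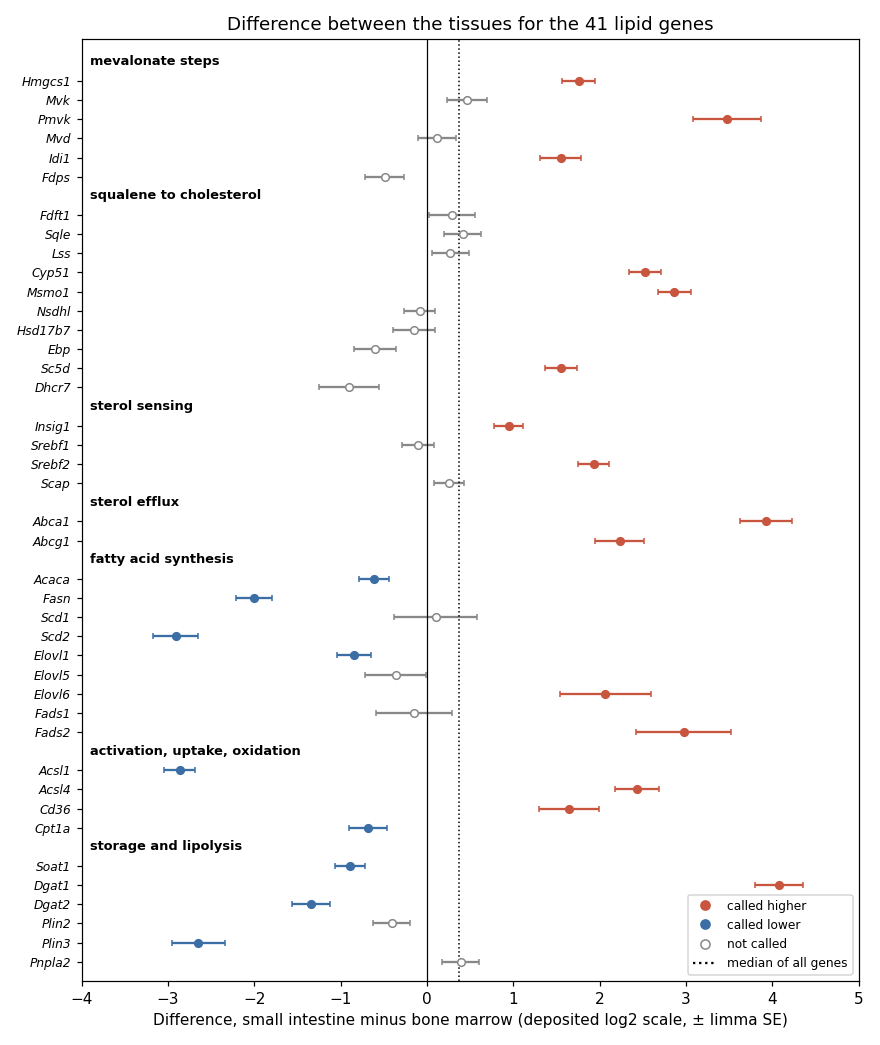
Difference between the tissues for the 41 lipid genes, the small intestinal mean minus the bone marrow mean in deposited log2 units, with limma SE as error bars, grouped by role. Filled points passed the test, open points did not, and the dotted line marks the median of all genes at 0.37; the largest rise is Dgat1 at 4.08 and the largest fall Scd2 at -2.91, and each role but the exporters holds genes on both sides of the dotted line.

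Of the 4 sterol sensing genes 2 rose, against a background of 36.6% called higher, and a set of 4 genes is too small to be read as a whole. Srebf2 encodes SREBP2, the factor that drives cholesterol synthesis. It had 702, 822, 748 and 629 normalised counts in bone marrow and 2385, 2882, 2949 and 2873 in small intestine. SI_6 was the lowest of its tissue and still far above every bone marrow library, and the difference was 1.93 ± 0.18 (adjusted p = 8.09e-05). Srebf1 encodes SREBP1, the paralogue best known for fatty acid synthesis. It had 369, 367, 448 and 324 counts in bone marrow and 372, 339.8, 304 and 378 in small intestine. The groups overlapped, with a difference of -0.11 ± 0.19 (adjusted p = 0.683). Per length of exon, Srebf2 was at 1.31 to 1.76 times the level of Srebf1 in the bone marrow libraries and at 5.03 to 7.61 times in the small intestinal libraries.

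Insig1, which holds SREBP in the endoplasmic reticulum, had 254, 284, 281 and 318 counts in bone marrow and 521, 570.0, 532 and 577 in small intestine. All small intestinal values were higher, and the difference was 0.94 ± 0.17 (adjusted p = 0.00269). Scap, the escort of SREBP, had 582, 567, 544 and 468 counts in bone marrow and 607, 634, 648 and 680.4 in small intestine. The groups of Scap did not overlap, but the difference of 0.25 ± 0.17 lay below that of a typical gene and was not called (adjusted p = 0.305). With libraries centred on the median of all genes neither Srebf2 (1.03, adjusted p = 0.0685) nor Insig1 (0.04, adjusted p = 0.949) was called, and Scap turned negative (-0.65).

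Both sterol exporters rose, where 36.6% of genes at this level were called higher, and 2 genes are too few to be read as a set. Abca1 (chr4:53030787-53159895), which loads cholesterol onto lipid-poor apolipoproteins, had 26.0, 37.8, 46.9 and 70.7 normalised counts in bone marrow and 623, 843, 603 and 779.9 in small intestine. The lowest small intestinal library was several-fold above the highest bone marrow library. The mean was 15.7-fold higher and the difference 3.93 ± 0.30 (adjusted p = 2.44e-05), the second largest rise of the 41 genes. Abcg1, which exports cholesterol to mature lipoprotein particles, had 138, 88.0, 153 and 75.3 counts in bone marrow and 438, 539, 469 and 689 in small intestine. Its groups did not overlap either, and the difference was 2.23 ± 0.28 (adjusted p = 0.000412). Higher levels of SREBP2 mRNA and of several synthesis enzymes were therefore measured in the same libraries as higher levels of the exporters. Macrophages also express both exporters, and the summed macrophage and dendritic list was higher in the small intestinal libraries, as given above. Of its 9 genes 5 were called higher and 4 were not called. Among the latter, Mrc1 (-0.62) and Cd163 (-0.79) had lower means in small intestine. The part of macrophage transcripts in this result was not tested.

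Fatty acid synthesis genes changed in both directions. Of 9 genes of synthesis and remodelling 4 fell (44.4%, against 26.2% of genes at this level), 2 rose (22.2%, against 36.6%) and 3 were not called. A second list of fatty acid synthesis and activation genes, described at the end, had 8 of 14 called higher (57.1%) and 1 lower (7.14%). Scd2 (chr19:44293674-44306864), a desaturase that puts the first double bond into saturated fatty acids, had 2343, 2215, 2368 and 1884 normalised counts in bone marrow and 432, 272, 196 and 299 in small intestine. Every small intestinal library lay far below every bone marrow library. The mean was 7.35-fold lower and the difference -2.91 ± 0.26 (adjusted p = 5.89e-05), the largest fall of the 41 genes. Its paralogue Scd1 was low in both tissues, at 13.8 to 36.4 counts in bone marrow and 10.7 to 51.3 in small intestine, and was not called (0.10 ± 0.48). The summed neutrophil precursor and cell cycle lists were higher in the bone marrow libraries, as given above. Their part in the fall of Scd2 and in the falls described below was not tested.

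Fasn, the fatty acid synthase, had 1582, 1679, 1733 and 1570.2 counts in bone marrow and 533, 429, 323 and 369 in small intestine. It was 3.97-fold lower on average, with a difference of -2.0 ± 0.21 (adjusted p = 0.000131) and no overlap. Acaca, the carboxylase that supplies Fasn with malonyl-CoA, had 686 to 829 counts in bone marrow and 426 to 523 in small intestine. Its difference of -0.61 ± 0.18 was called (adjusted p = 0.027), but not without BM_4, where it was -0.56 (adjusted p = 0.0684). Elovl1, which elongates very long chains, fell by 0.85 ± 0.20 on the log2 scale (adjusted p = 0.0111). Elovl5, an elongase of polyunsaturated chains, had the highest level per length of the 41 genes in bone marrow, at 758 normalised reads per kb, and 624 in small intestine. It ranged from 1829 to 3190.3 counts in bone marrow and from 1337 to 3644 in small intestine, so the groups overlapped (-0.36 ± 0.36). With libraries centred on the median of all genes Elovl5 was called lower (-1.26, adjusted p = 0.0239). Fads1, a desaturase of polyunsaturated chains, was not called (-0.15 ± 0.44), and was called lower without both BM_5 and SI_6 (-0.81, adjusted p = 0.0267).

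The 2 genes that rose in this set were uneven within the small intestine. Fads2, the desaturase that opens polyunsaturated fatty acid synthesis, had 6.13, 3.91, 3.83 and 8.37 normalised counts in bone marrow and 198, 74.9, 25.2 and 45.0 in small intestine. Elovl6, which elongates palmitate, had 55.2, 109.6, 117 and 75.3 counts in bone marrow and 954, 394, 149.9 and 332 in small intestine. In both genes the groups did not overlap, and the small intestinal libraries ran in the order SI_6, SI_7, SI_11, SI_10, which is also the order of the summed epithelial genes and of the summed macrophage and dendritic genes. Of the 41 genes this order held for 5, these 2 and the fallen genes Fasn, Acsl1 and Plin3. Of the 50 other lipid genes it held for 9. Of these 9, Apoe, Acss2, Elovl7 and Fads3 were called higher, Agpat2 and Acadl lower, and 3 were not called. The differences were 2.97 ± 0.55 for Fads2 (adjusted p = 0.00297) and 2.07 ± 0.53 for Elovl6 (adjusted p = 0.015). Without SI_6 both were still called, at 2.46 (adjusted p = 0.00289) and 1.62 (adjusted p = 0.0252). Elovl6 lost its call without SI_7 (2.04, adjusted p = 0.0516) and without both BM_5 and SI_6 (1.56, adjusted p = 0.0626). The part of epithelial or macrophage transcripts in these differences was not tested. Pmvk and Dgat1, shown beside them in the plot by library, were lowest in SI_6 among the small intestinal libraries.

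**Figure D3:**
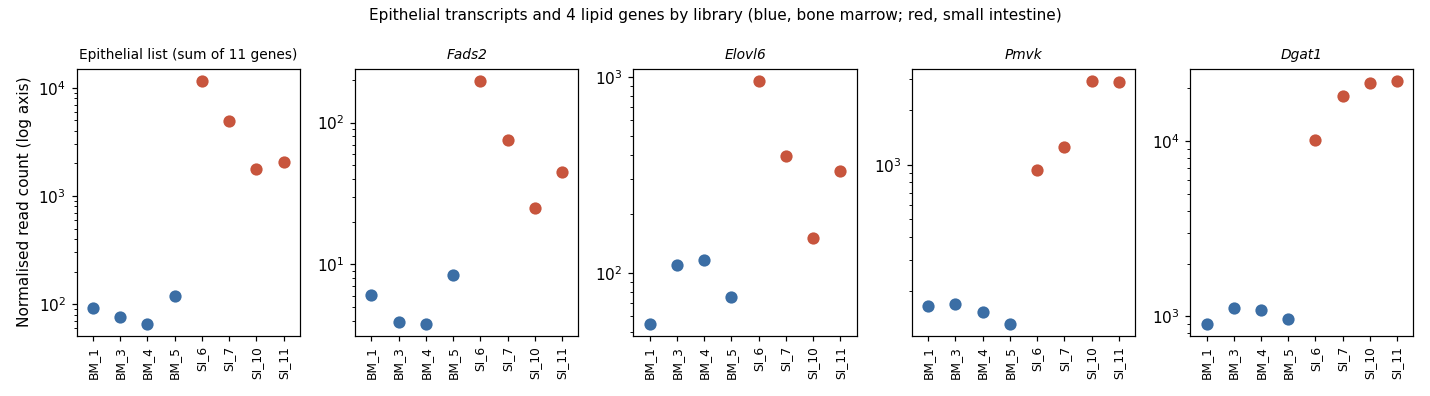
Normalised read count (log axes, each with its own range) by library for the summed epithelial list of 11 genes and for Fads2, Elovl6, Pmvk and Dgat1. The epithelial sum, Fads2 and Elovl6 share the order SI_6, SI_7, SI_11, SI_10 within small intestine, an order also seen in 3 of the 9 genes that fell, and Pmvk and Dgat1 have their lowest small intestinal value in SI_6.

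All 4 genes of fatty acid activation, uptake and oxidation were called, 2 in each direction, against 62.8% of genes at this level. A set of 4 genes is too small to be read as a whole. Acsl1 and Acsl4 encode acyl-CoA synthetases, which activate fatty acids for use, and Acsl4 is known for its preference for arachidonate. Acsl1 (chr8:46471037-46536051) had 4208, 4176, 4224 and 4115 normalised counts in bone marrow and 629, 596, 475 and 593 in small intestine. Its bone marrow libraries were the tightest of all 41 genes, with a coefficient of variation of 1.15%, and every small intestinal library lay far below them. The mean was 7.29-fold lower and the difference -2.87 ± 0.18 (adjusted p = 8.22e-06). Of the exon bases of Acsl1 9.91% lie opposite the annotated transcript Gm45244.

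Acsl4 had 626, 625, 400.0 and 628 counts in bone marrow and 2143, 3332, 3724 and 3220.4 in small intestine. All small intestinal libraries were higher, and the difference was 2.43 ± 0.26 (adjusted p = 0.000143). The balance of the pair turned over. Per length of exon, Acsl4 was at 0.184 to 0.296 times the level of Acsl1 in bone marrow and at 6.61 to 15.2 times in small intestine. Of the summed level of Acsl1, Acsl3, Acsl4 and Acsl5 per length, Acsl1 held 45.5% to 47.0% in bone marrow and 4.31% to 6.63% in small intestine, and Acsl4 held 8.64% to 13.7% and 43.8% to 65.6%. Acsl5 held 36.9% to 42.2% and 26.8% to 44.9%, so its share overlapped between the tissues.

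Cd36, a fatty acid and lipoprotein receptor, had 11.5, 16.3, 10.5 and 29.7 normalised counts in bone marrow and 78.6, 63.8, 58.0 and 35.6 in small intestine. The groups came close but did not overlap, and the difference was 1.64 ± 0.35 (adjusted p = 0.00588). Its level stayed low in both tissues, at 4.74 and 16.4 normalised reads per kb, and its call was lost with libraries centred on the median of all genes (0.74). Cpt1a, which carries acyl groups into mitochondria for oxidation, had 1837, 1639, 1536 and 1339.7 counts in bone marrow and 1331, 817, 945 and 908 in small intestine. The lowest bone marrow and highest small intestinal value nearly met. Its difference of -0.68 ± 0.22 was just past the threshold (adjusted p = 0.0418) and the call was lost without BM_1 (-0.61), BM_3 (-0.66), BM_4 (-0.69), SI_7 (-0.59), SI_10 (-0.66) or SI_11 (-0.64), each left out alone.

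Storage genes held both the largest rise and one of the largest falls. Dgat1 and Dgat2 encode unrelated enzymes that both add the last fatty acid of a triglyceride. Dgat1 (chr15:76502015-76511953) had 909, 1110.0, 1088 and 966 normalised counts in bone marrow and 10195, 18128, 21334 and 22118 in small intestine. The lowest small intestinal library, SI_6, was still several-fold above every bone marrow library. The mean was 17.6-fold higher and the difference 4.08 ± 0.28 (adjusted p = 1.36e-05). With 5872 normalised reads per kb, Dgat1 was by far the most abundant of the 41 genes in small intestine, ahead of Pmvk at 1163, while in bone marrow it was the fourth, at 333.

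Dgat2 had 736, 803, 691 and 635 counts in bone marrow and 211, 284, 368 and 275 in small intestine. It fell without overlap of the groups, by 1.34 ± 0.22 on the log2 scale (adjusted p = 0.00152). Per length of exon, Dgat1 was at 1.25 to 1.59 times the level of Dgat2 in bone marrow and at 48.8 to 81.1 times in small intestine. Soat1, which esterifies cholesterol for storage, fell as well, from 1626 to 1805 counts in bone marrow to 842 to 1063 in small intestine, with a difference of -0.89 ± 0.17 (adjusted p = 0.00381). The exporters and the sterol esterifying enzyme thus differed in opposite directions.

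Of the droplet coat genes, Plin3 fell and Plin2 was not called. Plin3 (chr17:56277476-56292873), a coat protein of small and new droplets, had 468, 444, 393 and 385 normalised counts in bone marrow and 122, 58.2, 44.9 and 52.2 in small intestine. SI_6 was the highest of its tissue, and all 4 small intestinal values were below every bone marrow value. The mean was 6.09-fold lower and the difference -2.65 ± 0.31 (adjusted p = 0.000256). Plin2, the main droplet coat of many cells, had 734 to 1117 counts in bone marrow and 575 to 786 in small intestine, with a difference of -0.41 ± 0.21 (adjusted p = 0.178). It was called lower without BM_5, at -0.52 (adjusted p = 0.0393), and also by voom (-0.50, adjusted p = 0.0188), with a mean-variance trend (adjusted p = 0.0353) and with libraries centred on the median of all genes (-1.31, adjusted p = 0.0189). Per length of exon, Plin2 was above Plin3 in both tissues, with 266 and 112 normalised reads per kb in bone marrow and 199.5 and 18.3 in small intestine. Pnpla2, the first lipase of triglyceride breakdown, had 732 to 1037 counts in bone marrow and 952 to 1387 in small intestine and was not called (0.39 ± 0.21, adjusted p = 0.205).

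A list of 50 other genes of the same routes was read in the same fit. Of these 33 were called (66.0%, against 62.8% of genes with a mean of at least 10), so the share called lay near the background. Higher were 22 (44%, against 36.6%) and lower 11 (22%, against 26.2%), with a median difference of 0.39. Of the 50 genes 47 reached this mean, and the shares are over all 50. Called genes were 3 of 6 in cholesterol synthesis (50%), 1 higher, with Tm7sf2 and Lbr lower, at -0.79 and -1.14. In sterol uptake and handling they were 10 of 12 (83.3%, 7 higher, 3 lower). In fatty acid synthesis and activation they were 9 of 14 (64.3%, 8 higher, 1 lower). In storage, lipolysis and oxidation they were 11 of 18 (61.1%, 6 higher, 5 lower). The 3 largest rises and the 2 largest falls were in storage and lipolysis, and several of them encode partners of Pnpla2.

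Hilpda and G0s2 encode small proteins that inhibit the lipase made by Pnpla2. Hilpda had 46.7, 39.1, 45.9 and 27.0 normalised counts in bone marrow and 1212, 1831, 3131 and 2893 in small intestine. G0s2 had 320.3, 292, 306 and 255 counts in bone marrow and 7194, 8197, 12002 and 12010.5 in small intestine. Neither gene overlapped between the tissues, and the differences of 5.64 ± 0.34 (adjusted p = 7.76e-06) and 5.02 ± 0.23 (adjusted p = 2.16e-06) exceeded that of every one of the 41 genes. Abhd5 encodes the activator of the same lipase and ran the other way. It had 2441, 2608, 2693 and 2614 counts in bone marrow and 172, 189, 149 and 199 in small intestine, a fall of 14.6-fold (-3.85 ± 0.18, adjusted p = 2.1e-06). Per length of exon, G0s2 was at 1.07 to 1.27 times the level of Pnpla2 in bone marrow and at 26.2 to 33.0 times in small intestine. Abhd5 was at 1.19 to 1.81 times the level of Pnpla2 in bone marrow and at 0.0599 to 0.0981 times in small intestine. The lipase itself did not pass the test (it was called higher under a mean-variance trend, adjusted p = 0.0446), while both inhibitor genes rose and the activator gene fell. The genes of the next lipases of triglyceride breakdown both rose, Lipe by 2.19 ± 0.19 (adjusted p = 5.44e-05) and Mgll by 3.20 ± 0.22 (adjusted p = 1.47e-05), so the genes of this route did not move one way.

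**Figure D4:**
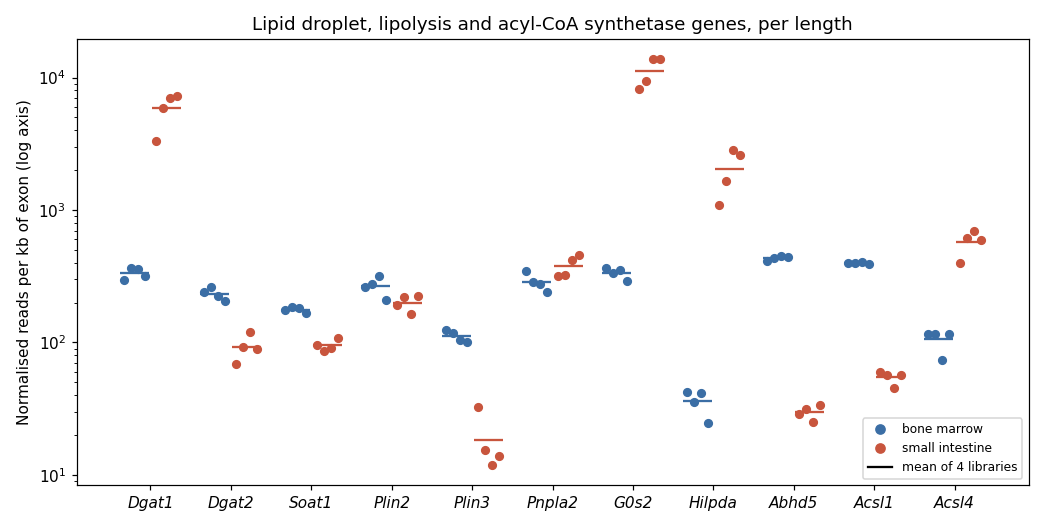
Normalised reads per kb of merged exon (log axis) in each library for genes of triglyceride and sterol ester synthesis, droplet coats, lipolysis and acyl-CoA synthetases, blue for bone marrow and red for small intestine, with bars at the means of 4 libraries. Dgat1 and Dgat2 lie close together in bone marrow and far apart in small intestine, and G0s2 and Hilpda rise while Abhd5 falls around a lipase gene, Pnpla2, that was not called.

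Other genes of glycerolipid synthesis also differed. Lpin1, a phosphatase that makes diacylglycerol, had 15.3, 30.7, 23.9 and 31.6 normalised counts in bone marrow and 377, 452, 503 and 480.0 in small intestine, with a difference of 4.01 ± 0.25 (adjusted p = 8.72e-06). Agpat2, an acyltransferase of an earlier step, had 969, 903, 875 and 835 counts in bone marrow and 211, 108, 49.2 and 66.4 in small intestine. Its difference was -3.21 ± 0.41 (adjusted p = 0.000406). Lpl, the lipase that frees fatty acids from lipoproteins, was low and lower in small intestine, at 47.8 to 67.4 counts in bone marrow and 9.85 to 26.3 in small intestine (-1.74 ± 0.28, adjusted p = 0.00139). None of the 3 overlapped between the tissues.

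Spread within a tissue was larger in small intestine. The coefficient of variation of the 41 genes had a median of 13.8% for the bone marrow libraries and 20.9% for the intestinal libraries. It reached 90.3% for Fads2 and 75.8% for Elovl6 in small intestine. SI_6 was the lowest small intestinal library for 8 of the 15 genes called higher and the highest for 5 of the 9 called lower, and BM_5 was the lowest bone marrow library for 8 of the 9 called lower and for 11 of the 17 not called. The dissociation response genes rose with tissue and handling together, and their part in the lipid gene differences was not tested.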

How the data were processed

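The authors made cDNA with an amplifying kit, sequenced single ends, aligned the reads to GRCm38, counted them per gene and transformed the counts with DESeq2's variance stabilisation; the deposited values are therefore on a log2 scale. Neither the aligner nor the strand setting is named in the sources used here, so genes on opposite strands that overlap, and genes with near-identical copies, are uncertain. Only samples with an RNA integrity number of at least 7 were sequenced in the study.

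The closed form of the transformation was inverted from the lowest deposited value. The inverted values gave whole reads within 0.05 for 100% of values, with size factors of 0.721 to 1.53, and normalised counts are these reads divided by the size factors. Levels compared between genes are per kb of merged exon in GENCODE M21, in which all 38392 identifiers were found. All genes of all 8 libraries were fitted in limma (version 3.58.1, under R 4.3.3) as deposited log2 values (constant prior, no covariate, no filter), with Benjamini-Hochberg adjustment over all genes and a threshold of 0.05; the study's own test was a count model. The script was tested on simulated data. Limma voom on the recovered reads, which called 12992 genes against 13402, was an alternative, as were scaling by medians and quantiles, a variance trend, pseudocounts of 1 and 5, a filter at a mean of 10, leaving out each library, and leaving out BM_5 and SI_6 together, which was added after seeing the data.

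Members and lists were chosen with earlier results of these data known. Every member is named. Values in each library are given for the 3 largest rises and falls, for called members that lost the call under a scaling alternative, and for sensing and efflux genes. The 3 largest rises and falls of the other lipid genes with a mean of at least 10 are named. Values in each library of other genes, and G0s2, Abhd5 and Pnpla2 as a set, with Lipe, Mgll, Tm7sf2 and Lbr, were picked after their values were seen. The column names gave each library's tissue but not its sample, and nothing in them pairs the tissues. Each limma p-value sets the difference between tissue means against the spread between libraries of a tissue, which limma moderates over all genes. Tables and plots used Python 3.11.15, pandas 2.3.3 and matplotlib 3.10.9.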

Additional observations from a re-analysis of the deposited data

Results flagged for a closer look

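In all 112 groups of 4 libraries were examined. They covered the 41 lipid genes, the 3 largest rises and falls of the other lipid genes, and the summed marker lists. Of these groups 3 had a library set apart from the other 3, and about 5.6 would be expected by chance. The measure is the gap to the nearest library divided by the range of the group. It was taken on deposited log2 values for genes and on summed counts for lists. Lss was highest in SI_6, with 0.946, at 247 normalised counts against 154 to 158. Srebf2 was lowest in SI_6, with 0.877, at 2385 against 2873 to 2949. Acsl4 was lowest in BM_4, with 0.99, at 400.0 against 625 to 628.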

How the results depend on the processing

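Of the 24 called members 15 kept their call and sign under all 17 alternatives, 8 of which left out 1 library, and 9 lost the call under at least 1; 8 of the 17 uncalled members were called under at least 1. Scaling mattered most. Calls over all genes were 63.2% higher as reported, 54.4% with libraries centred on the median of the better covered genes (mean of at least 10), 45.8% after quantile normalisation and 29.5% with libraries centred over all genes, where the median of all genes moved from 0.37 to -0.53. With centring over all genes 9 members were called higher and 14 lower, the mevalonate steps had 1 higher and 1 lower, squalene to cholesterol had 2 lower, sensing had 0 higher, activation, uptake and oxidation had 1 higher, and the other lipid genes had 11 higher and 17 lower. The median of the members was then -0.65, and the sign turned for Mvk (-0.43), Mvd (-0.78), Fdft1 (-0.61), Sqle (-0.49), Lss (-0.63), Scap (-0.65), Scd1 (-0.80) and Pnpla2 (-0.51), none of which was called. Quantile normalisation called 1 mevalonate and 1 squalene to cholesterol gene lower and turned Mvk (-0.022), Nsdhl (0.0076), Srebf1 (0.0072) and Scd1 (-0.79). Centring on the better covered genes turned Mvd (-0.068) and Scd1 (-0.083). Squalene to cholesterol had 2 genes called lower, Ebp and Dhcr7, under that centring, the variance trend, voom, the filter and the removal of both BM_5 and SI_6. The variance trend called 2 storage genes higher. Without both libraries 1 fatty acid synthesis gene was called higher and Scd1 was -0.23. Hmgcs1, Idi1, Sc5d, Srebf2, Insig1 and Cd36 lost their call with centring over all genes and kept it with centring on the better covered genes. Of the 38392 genes, BM_4 had reads in 19713 and SI_10 in 33346. The cause of the shifts in this paragraph was not tested.

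With 1 library left out, the calls ranged from 0 to 1 lower in the mevalonate steps, from 0 to 2 lower in squalene to cholesterol, from 1 to 2 higher in fatty acid synthesis and from 1 to 2 lower in activation, uptake and oxidation. The differences ranged from -0.27 to 0.38 for Scd1, -0.49 to 0.026 for Fads1, -0.0087 to 0.22 for Mvd and -0.23 to 0.011 for Hsd17b7. No paired analysis was possible because the labels give each mouse its own number and the tissues share none. Depth limits Fads2 in bone marrow, at 3.83 to 8.37 normalised counts.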
